A study of Homo sapiens with 6 samples.

Results

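The 35 genes described here serve homologous recombination, the Fanconi anaemia pathway and tolerance of DNA crosslinks. They were taken by name from a list of members, and each was found once among the 23145 genes kept from the deposited expression table, by a rule that uses no measured values, although the list was drawn up with earlier results of these data known. All 35 had a mean of at least 1 FPKM and were tested, among 12841 genes over all 6 libraries and among 12083 genes over the 4 A2780 libraries. FPKM (fragments scaled to transcript length and to all mapped fragments) is a level per gene length, so that levels of different genes can be set side by side. The loci of FANCA, FANCI, FANCD2, FANCL, FAN1, TP53BP1, RBBP8, POLH and CHEK1 overlap another entry of the table, and how shared reads were assigned is not given in the sources used here.

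The study set ovarian cancer cells with much COL11A1 beside cells with little, asking how their mRNAs differ; COL11A1 encodes a fibrillar collagen chain. Poly-A RNA was sequenced from 6 cultures, 1 library each: 4 of the human line A2780 and 2 of OVCAR3. In the low group were A2780 given a scrambled shRNA, A2780 in which COL11A1 was knocked down by shRNA (A2780-shCOL11A1) and OVCAR3 carrying GFP (OVCAR3-GFP). In the high group were A2780CIS, A2780 transfected with COL11A1 (A2780-COL11A1) and OVCAR3 transfected with COL11A1 (OVCAR3-COL11A1). A2780CIS was not transfected: per the labels it is a line made resistant to cisplatin by long exposure to the drug, with high COL11A1 of its own. None of the cultures is labelled as given cisplatin before RNA was taken. Each low A2780 culture has an shRNA construct and the labels give none for its high cultures, so construct type and COL11A1 cannot be told apart there, and A2780 has no overexpression control. No separate cultures of 1 construct were sequenced, so the spread within a group or line is a spread between constructs, and a single value has no replicate.

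COL11A1 itself (chromosome 1, 103342022 to 103574052, GRCh37) followed the labels within each line. It stood at 4.23 FPKM with the scrambled shRNA, 0.670 with the shRNA against it, 297 in A2780CIS and 8.17 in A2780-COL11A1. OVCAR3 had 0.0258 FPKM with GFP and 1.67 with COL11A1. The labels call all cultures ovarian cancer cells. Of 8 epithelial and ovarian markers, OVCAR3 had 7 at 16.0 FPKM or more (EPCAM, KRT8, KRT18, CDH1, PAX8, WT1 and MSLN) and MUC16 at 1.45 and 2.06, whereas in A2780 the median of the list was 0.0461 to 0.113 FPKM, with WT1 at 0.001, the lowest value of the table, in all 4 libraries. KRT18 was the exception in A2780, at 3.24 to 5.11 FPKM and 44.8 in A2780CIS. Leukocyte and endothelial markers were at or near 0 apart from CD68, at up to 3.68 FPKM in A2780CIS, and CD14, at up to 2.65 in OVCAR3. Of 4 fibroblast markers (COL1A1, PDGFRB, DCN and LUM), the highest stood at 1.33 to 4.05 FPKM in A2780 and at 4.30 and 6.86 in OVCAR3. The median of these 4 was 0.559 to 1.48 FPKM in A2780 and 0.0168 and 0.137 in OVCAR3. Relative depth was estimated from low values of the same genes in each library and the scrambled control, each taken as 1 read. With the scrambled control at 1, it ran from 0.501 in OVCAR3-COL11A1 (332 genes compared) to 1.58 in A2780-COL11A1 (1074 genes compared).

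Homologous recombination repairs a DNA double-strand break, or a replication fork broken at a crosslink, by copying an intact sister chromatid. Break ends are sensed and trimmed to single strands, BRCA2 then acts on them with PALB2 and the complexes of RAD51B, RAD51C, RAD51D, XRCC2 and XRCC3, and the prepared strand invades the sister. Crosslinks between DNA strands, a kind of lesion that cisplatin makes, are handled by the Fanconi pathway: a core complex attaches ubiquitin to the FANCD2-FANCI pair, nucleases cut the crosslink out, and translesion polymerases fill the gap. Ovarian carcinomas often lose BRCA1 or BRCA2, and tumours without this repair tend to respond to platinum.

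**Figure D1:**
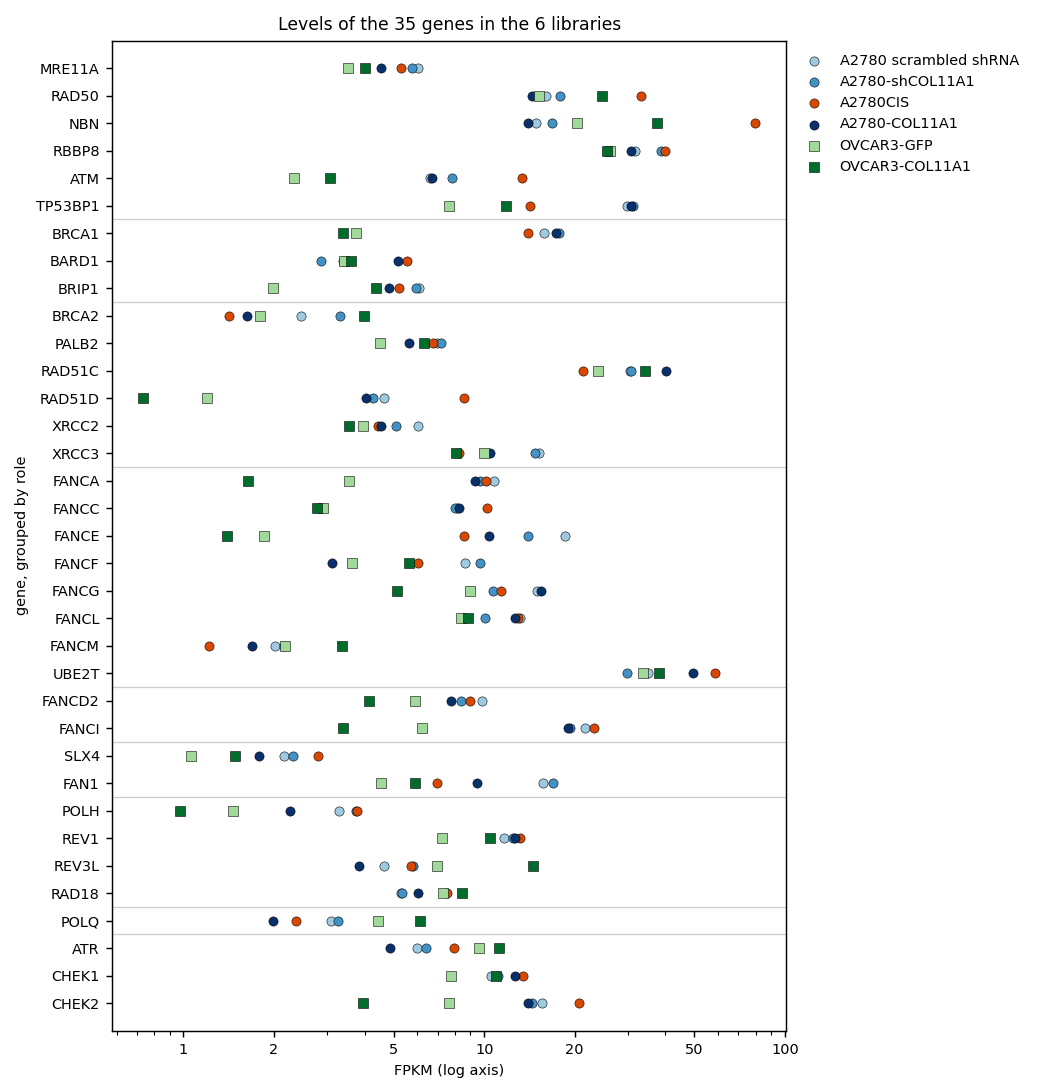
Level of each of the 35 genes (FPKM, log axis) in the 6 libraries, with genes ordered by role, circles for A2780 and squares for OVCAR3; each point is 1 library and there are no error bars. The squares of FANCE, FANCI, BRCA1, FANCA and RAD51D lie far to the left of the circles, and the A2780CIS circle of NBN stands at 79.8 FPKM, right of all others.

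A few promoters are shown because their genes carry the results that follow: BRCA1 and FANCA were lower in OVCAR3, and TP53BP1 and RAD50 moved in opposite directions in A2780CIS. The RefSeq promoter table (GRCh38.p14) matched 33 of the 35 genes by symbol, MRE11A under the symbol MRE11, and gave them 43 promoters; NBN and FANCI had no entry. Each line gives the 250 bases before the gene's start, 5′ to 3′ on the gene's strand, from chr17:43125365-43125614 (minus strand, one of 2 entries for BRCA1), chr16:89816648-89816897 (minus), chr15:43510641-43510890 (minus) and chr5:132556727-132556976 (plus). Capitals mark matches, on either strand, to a CCAAT box (CCAAT) or to an E2F core, searched as TTGGCGC or TTCCCGC or TTCGCGC or TTGCCGC.
BRCA1: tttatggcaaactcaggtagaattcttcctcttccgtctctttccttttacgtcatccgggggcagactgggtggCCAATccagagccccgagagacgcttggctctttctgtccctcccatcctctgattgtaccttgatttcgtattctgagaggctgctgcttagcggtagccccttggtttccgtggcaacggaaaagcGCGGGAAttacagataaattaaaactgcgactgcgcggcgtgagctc
FANCA: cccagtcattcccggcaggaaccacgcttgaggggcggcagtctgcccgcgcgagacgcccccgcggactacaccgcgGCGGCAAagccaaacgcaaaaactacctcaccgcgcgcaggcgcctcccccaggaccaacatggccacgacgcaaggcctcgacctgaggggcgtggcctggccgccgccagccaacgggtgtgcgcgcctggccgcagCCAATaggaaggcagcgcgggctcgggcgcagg
TP53BP1: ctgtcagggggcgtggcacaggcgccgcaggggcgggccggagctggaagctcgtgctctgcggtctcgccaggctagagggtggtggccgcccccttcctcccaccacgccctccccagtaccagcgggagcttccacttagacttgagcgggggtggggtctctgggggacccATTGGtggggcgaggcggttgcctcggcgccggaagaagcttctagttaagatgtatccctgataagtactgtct
RAD50: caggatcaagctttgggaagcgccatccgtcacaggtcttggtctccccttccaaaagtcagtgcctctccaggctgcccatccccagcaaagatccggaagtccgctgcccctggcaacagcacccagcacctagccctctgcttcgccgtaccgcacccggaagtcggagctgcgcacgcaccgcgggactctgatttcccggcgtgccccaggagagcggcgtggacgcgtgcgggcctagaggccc
E2F is a family of factors that time the transcription of S-phase genes, and the CCAAT box is a common proximal promoter element. The BRCA1 and FANCA windows shown held a match to each motif, TP53BP1 held a CCAAT box alone, and RAD50 held neither. The other BRCA1 entry, chr17:43170328-43170577 on the minus strand, held neither as well. Of the 43 promoters of these genes, 8 (18.6%) held an E2F core, against 10.9% of all 35116 promoters of the same length in the table, and 16 (37.2%) held a CCAAT box, against 32.0%. The cell cycle homology region, searched as TTTGAA, was found in 5 (11.6%), against 13.3%. The promoters of these genes had a median GC content of 64.8%, against 58% for all. Such matches describe letters in a window, and no binding was measured.

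Most of the calls among the 35 genes lay between the cell lines. In OVCAR3, 11 of the 35 genes were lower than in A2780, among them BRCA1, the Fanconi core genes FANCA, FANCC and FANCE, both genes of the FANCD2-FANCI pair, RAD51D, ATM, CHEK2, TP53BP1 and POLH. None was called higher with the values as deposited, whereas REV3L, POLQ and ATR were called higher when libraries were put on a common median or quantile scale. The call was an adjusted p under 0.05 in limma, a linear model fitted across all genes on log2(FPKM + 1) with line and COL11A1 group as terms; on this scale changes of low genes are understated. By the same rule 25.6% of all genes were lower in OVCAR3 and 19.6% higher, so the 11 lower genes (31.4%) stand near the background, while 0 of 35 stands against 19.6%. With the quantile scale 3 of the 35 genes and 2911 of all genes were called higher. With the median scale these counts were 3 and 3066, against 0 and 2522 as deposited. The median difference of the 35 genes was -0.42, against -0.15 for all genes; with a common median it was -0.24, against 0.03. In a culture, a lower level in each cell and fewer cells that express a gene cannot be told apart.

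Of 8 genes for the Fanconi core, the complex that recognises the crosslink and carries the ubiquitin ligase, and for its ubiquitin-conjugating enzyme UBE2T, 3 were lower in OVCAR3, against 25.6% of all genes. A2780 values are given throughout in the order scrambled shRNA, A2780-shCOL11A1, A2780CIS and A2780-COL11A1, and OVCAR3 values in the order OVCAR3-GFP and OVCAR3-COL11A1. FANCE (chromosome 6, 35420137 to 35434881), which links the core to FANCD2, stood at 18.5, 14.0, 8.57 and 10.4 FPKM in A2780 and at 1.86 and 1.39 in OVCAR3. Its mean level was 7.92 times higher in A2780, and its log2 difference of -2.35 ± 0.25 (SE) was the largest among the 35 genes (limma, adjusted p = 0.00131). FANCA (chromosome 16, 89803958 to 89883065), a scaffold subunit, stood at 10.8, 9.68, 10.1 and 9.35 FPKM against 3.55 and 1.63, a difference of -1.66 ± 0.25 (adjusted p = 0.00439, limma). The A2780 values of FANCA lay within a narrow band, and OVCAR3-COL11A1 was the lowest library. FANCC (chromosome 9, 97861335 to 98079991), a partner of FANCE and FANCF, stood at 8.12, 8.0, 10.2 and 8.23 FPKM against 2.92 and 2.77 (-1.32 ± 0.22, adjusted p = 0.00576, limma). For each of these 3 genes every OVCAR3 library lay below every A2780 library.

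The other genes of this group were not called. FANCG, another core subunit, stood at 14.9, 10.7, 11.4 and 15.4 FPKM in A2780 and at 8.95 and 5.11 in OVCAR3, with no overlap (adjusted p = 0.0593, limma). FANCL, the ubiquitin ligase subunit, stood at 13.2, 10.1, 13.0 and 12.7 FPKM against 8.36 and 8.83, also with no overlap. FANCF, an adaptor of the core, overlapped between the lines, at 8.61, 9.71, 6.02 and 3.12 FPKM against 3.64 and 5.64. It was the core gene whose A2780 libraries spread most as a ratio. FANCM, the translocase that anchors the core to DNA, was among the lowest of the 35 genes and lay the other way, at 2.02, 2.16, 1.22 and 1.70 FPKM in A2780 and 2.18 and 3.37 in OVCAR3. UBE2T, the ubiquitin-conjugating enzyme that works with FANCL, was the highest of the group, at 35.1, 29.9, 58.4 and 49.6 FPKM against 33.7 and 38.1, and its lines overlapped.

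Both targets of the core were lower in OVCAR3. FANCI (chromosome 15, 89787193 to 89860362) stood at 21.7, 19.3, 23.1 and 19 FPKM in A2780 and at 6.20 and 3.39 in OVCAR3, a mean 4.34 times higher in A2780 (-1.95 ± 0.25, adjusted p = 0.00245, limma). FANCD2 (chromosome 3, 10068112 to 10143614) differed less, at 9.85, 8.4, 8.96 and 7.78 FPKM against 5.87 and 4.15 (-0.71 ± 0.22, adjusted p = 0.0429, limma), and its call was lost in 7 of 14 alternative settings, under both common scalings and without any library but A2780CIS (adjusted p up to 0.179). The lines did not overlap for either gene. Downstream of the pair, SLX4, a scaffold for nucleases, stood at 2.16, 2.32, 2.80 and 1.79 FPKM against 1.06 and 1.48, and FAN1, a nuclease drawn to ubiquitinated FANCD2, stood at 15.7, 16.9, 6.97 and 9.48 FPKM against 4.53 and 5.90. Every OVCAR3 library was lower than every A2780 library for both nuclease genes, and neither was called (adjusted p = 0.134 and 0.0517, limma).

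BRCA1 and its partners did not differ alike. BRCA1 (chromosome 17, 41196311 to 41277500), the ubiquitin ligase that promotes end resection and brings PALB2 to breaks, stood at 15.8, 17.7, 14.0 and 17.4 FPKM in A2780 and at 3.73 and 3.40 in OVCAR3. The mean level in A2780 was 4.55 times that in OVCAR3 (-1.91 ± 0.21, adjusted p = 0.00138, limma). BARD1, which forms the ligase with BRCA1, stood at 3.40, 2.86, 5.55 and 5.17 FPKM against 3.43 and 3.59, so that the lines overlapped (-0.18 ± 0.25, adjusted p = 0.569, limma). In OVCAR3 the levels of both partners were therefore close to each other, while in A2780 BRCA1 stood above BARD1 in every library. BRIP1, the helicase bound by BRCA1, stood at 6.07, 5.91, 5.21 and 4.82 FPKM against 1.99 and 4.37, with no overlap and no call (adjusted p = 0.110, limma).

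Among the genes that act after resection, BRCA2, PALB2, RAD51C, RAD51D, XRCC2 and XRCC3, only RAD51D was called between the lines. RAD51D (chromosome 17, 33426810 to 33446888), a subunit of the complex with RAD51B, RAD51C and XRCC2, stood at 4.64, 4.27, 8.59 and 4.04 FPKM in A2780 and at 1.2 and 0.734 in OVCAR3 (-1.66 ± 0.35, adjusted p = 0.0127, limma). Its locus overlaps the entry RAD51L3-RFFL, so reads could be assigned to either. Its call was lost without either OVCAR3 library and with no filter on low values (limma, adjusted p up to 0.131). RAD51C stood at 30.5, 30.8, 21.3 and 40.1 FPKM against 23.8 and 34.3, and was the highest of these 6 genes in each library. BRCA2, a central mediator of recombination, stood at 2.46, 3.31, 1.42 and 1.62 FPKM against 1.80 and 3.98, and PALB2, its bridge to BRCA1, at 6.96, 7.21, 6.75 and 5.64 against 4.50 and 6.30. The lines overlapped for these 3 genes. XRCC2 stood at 6.04, 5.11, 4.44 and 4.53 FPKM against 3.96 and 3.55, without overlap, and XRCC3, the partner of RAD51C in another complex, stood at 15.2, 14.8, 8.27 and 10.5 against 10.0 and 8.08.

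Of the genes that sense and process breaks, ATM and TP53BP1 were lower in OVCAR3. ATM (chromosome 11, 108093558 to 108239826), the kinase activated by double-strand breaks, stood at 6.6, 7.79, 13.3 and 6.71 FPKM against 2.34 and 3.07 (-1.33 ± 0.31, adjusted p = 0.0177, limma). TP53BP1 (chromosome 15, 43699411 to 43802707), which shields ends from resection and so favours end joining over recombination, stood at 29.8, 31.3, 14.1 and 30.8 FPKM against 7.62 and 11.8 (-1.32 ± 0.39, adjusted p = 0.0380, limma). ATM was no longer called in 5 of 14 alternative settings, among them those without either shRNA library or either OVCAR3 library (adjusted p up to 0.133), and TP53BP1 in 7, which also took in the setting without A2780-COL11A1 (adjusted p up to 0.322, limma). No OVCAR3 library reached an A2780 library for either gene. The MRN complex, which binds and tethers ends, is made of MRE11A, RAD50 and NBN, and none of its genes was called between lines. MRE11A, the nuclease of the complex, stood at 6.02, 5.75, 5.28 and 4.55 FPKM against 3.53 and 4.03. RBBP8, the CtIP protein that starts resection with MRN, stood at 31.7, 38.6, 39.99 and 30.7 FPKM against 26.2 and 25.5. In neither MRE11A nor RBBP8 did the lines overlap.

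In the checkpoint group CHEK2 was lower in OVCAR3 and ATR lay the other way. CHEK2 (chromosome 22, 29083730 to 29137822), the kinase that ATM activates, stood at 15.5, 14.4, 20.6 and 14.0 FPKM against 7.61 and 3.96 (-1.37 ± 0.30, adjusted p = 0.0150, limma). Without OVCAR3-COL11A1, and with no filter on low values, it was not called (limma, adjusted p up to 0.122 over the settings tried). ATR, the kinase of stalled forks, stood at 5.98, 6.41, 7.92 and 4.87 FPKM against 9.62 and 11.2, above every A2780 library in OVCAR3 (0.66 ± 0.25, adjusted p = 0.0806, limma). CHEK1, the kinase that ATR activates, stood at 10.5, 11.1, 13.5 and 12.6 FPKM against 7.73 and 11, with overlap. ATM and CHEK2 thus had lower values in OVCAR3 and ATR had higher ones, a difference of direction whose upper side was called only under the common scalings and without A2780CIS.

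The polymerases of damage tolerance were also split. POLH (chromosome 6, 43543877 to 43588260), the polymerase that bypasses cisplatin adducts, stood at 3.28, 3.76, 3.78 and 2.27 FPKM in A2780 and at 1.46 and 0.972 in OVCAR3 (-0.94 ± 0.26, adjusted p = 0.0302, limma), a call lost in 6 of 13 alternatives, among them those without either shRNA library or either OVCAR3 library (adjusted p up to 0.137). REV3L, the catalytic subunit of polymerase zeta, stood at 4.66, 5.81, 5.69 and 3.84 FPKM against 6.97 and 14.5, and POLQ, polymerase theta of microhomology end joining, stood at 3.10, 3.28, 2.37 and 1.99 against 4.44 and 6.11. Both were above every A2780 library in OVCAR3 but were not called on the deposited scale (0.90 ± 0.33 and 0.77 ± 0.27, adjusted p = 0.0703 and 0.0628, limma). REV1, the scaffold of translesion synthesis, stood at 11.6, 12.5, 13.1 and 12.7 FPKM against 7.24 and 10.4. RAD18, the ligase that marks the sliding clamp for bypass, stood at 5.28, 5.33, 7.50 and 6.03 FPKM against 7.31 and 8.45, with an overlap between A2780CIS and OVCAR3-GFP. In all, 20 of the 35 genes had every A2780 library above both OVCAR3 libraries, and 4 (FANCM, REV3L, POLQ and ATR) had the reverse; for all genes tested these shares were 34.5% and 26.5%.

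**Figure D2:**
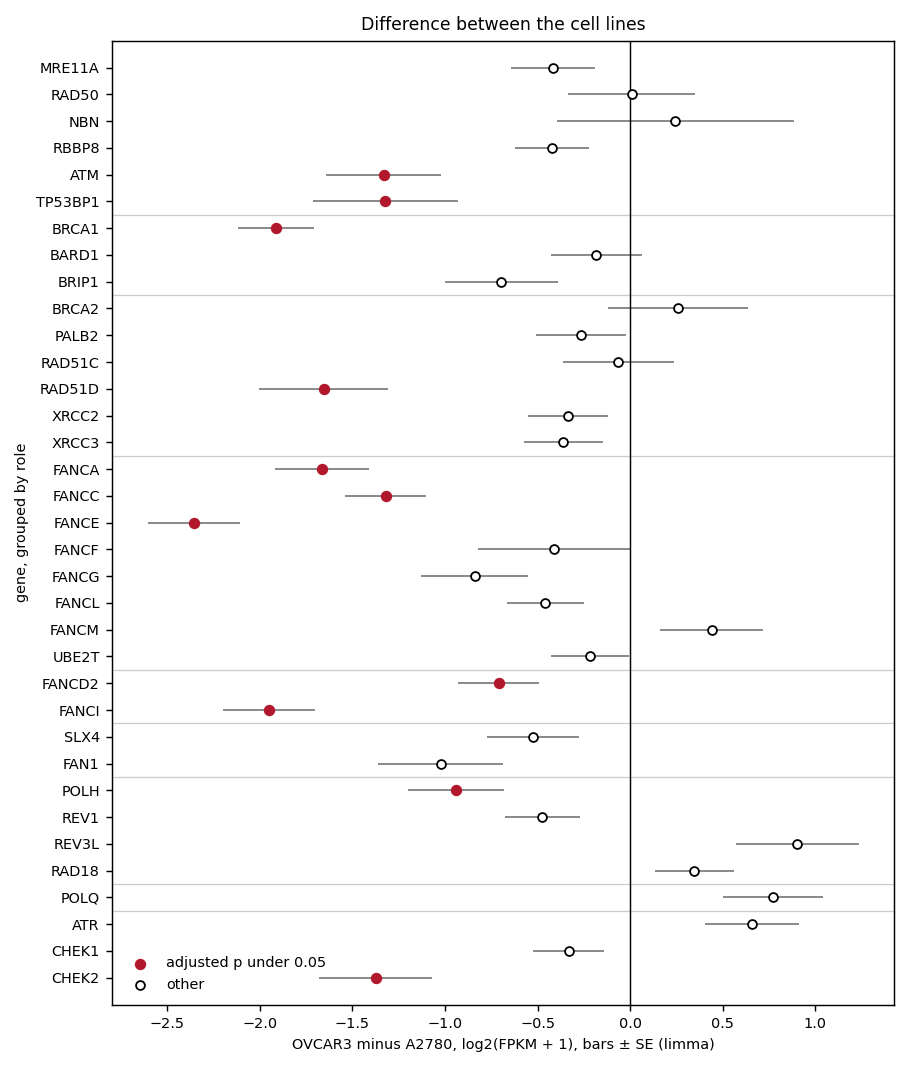
Difference between OVCAR3 and A2780 in log2(FPKM + 1) for each gene (x axis), with bars of 1 SE from limma; filled points have an adjusted p under 0.05. All 11 filled points lie left of 0, from -0.71 for FANCD2 to -2.35 for FANCE, and the rightmost points, REV3L at 0.90 and POLQ at 0.77, are open on the deposited scale and called higher under the common median and quantile scalings.

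The genes around each member were read in the same fit. For each gene the 10 nearest tested genes on each side were taken. Of all genes tested, 25.6% were called lower in OVCAR3 and 19.6% higher. The 20 neighbours of REV3L had a median difference of 0.89 between the lines, with 10 called higher and 0 lower, close to the 0.90 of REV3L itself. Those of POLQ had a median of 0.56, with 8 called higher and 0 lower. On the lower side, the neighbours of POLH had a median of -1.21 (14 called lower, 0 higher) and those of FANCA -1.21 (12 and 1). Those of FANCI had -1.15 (10 and 2), those of BRCA1 -0.94 (10 and 3) and those of FANCE -0.93 (9 and 0). For CHEK2 the median was 0.11 and for RAD51D -0.10, against -1.37 and -1.66 for the genes. For ATM, TP53BP1, FANCC and FANCD2, also called lower, it was -0.52, -0.43, -0.34 and -0.25. The lowest and highest neighbour medians among the members belonged to genes that were not called. They were -1.34 for CHEK1 (9 called lower, 0 higher) and 0.99 for FANCF (11 called higher, 2 lower). CHEK1 and FANCF themselves differed by -0.33 and -0.41. Copy number was not measured, and the part of the neighbourhood in these differences was not tested.

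Other genes of these pathways were read from a list of 59, of which 16 (27.1%) were lower and 1 (1.69%) higher in OVCAR3, against 25.6% and 19.6% of all genes, with a median difference of -0.14, near the -0.15 of all genes. The lowest were ERCC1, the partner of the XPF nuclease that cuts at crosslinks (-2.52 ± 0.39, adjusted p = 0.00448, limma), RMI2 of the dissolvasome (-1.90), C17orf70, the core subunit FAAP100 (-1.88), and BABAM1 of the BRCA1-A complex (-1.70). SWI5, a recombination accessory gene, was the only one higher (0.97 ± 0.25, adjusted p = 0.0234, limma). Of 9 end joining genes 4 (44.4%) were lower, led by the ligase gene LIG3 (-1.97), and 1 (11.1%) was higher. Of 22 proliferation genes 5 (22.7%) were lower and 2 (9.09%) higher, with a median of -0.20, and of 18 targets of p53 13 (72.2%) were lower and 0 higher, with a median of -1.24.

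In A2780CIS against the other 3 A2780 cultures, NBN, RAD50, RAD51D and ATM were higher and TP53BP1 was lower. A2780CIS is 1 library against 3, and limma assumes that it would vary between repeats as the other 3 vary among themselves. By the same rule 9.15% of the 12083 genes were higher and 9.85% lower, against 4 and 1 of the 35 genes (11.4% and 2.86%). The median difference of the 35 genes was 0.09, against -0.07 for all genes.

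NBN (chromosome 8, 90945563 to 90996899), the nibrin subunit that recruits ATM to breaks, was the gene with the largest difference. It stood at 14.9 FPKM with the scrambled shRNA, 16.8 in A2780-shCOL11A1, 14.0 in A2780-COL11A1 and 79.8 in A2780CIS, that is 15.3 ± 1.43 (SD, n = 3) against a level 5.23 times as high. The log2 difference was 2.32 ± 0.19 (SE, adjusted p = 0.00308, limma), and it was called in 11 of 11 alternative settings. All 20 neighbours of NBN on chromosome 8 had positive differences in A2780CIS, with a median of 0.99, and 10 of them were called higher; the part of the neighbourhood in the NBN value was not tested. In OVCAR3 the level of NBN was 20.3 FPKM with GFP and 37.6 with COL11A1, also above the other 3 A2780 libraries.

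RAD50 (chromosome 5, 131892615 to 131980313), the ATPase of the same complex, stood at 33.2 FPKM in A2780CIS and at 16.0, 17.8 and 14.4 in the other A2780 cultures, and at 15.2 and 24.6 in OVCAR3. Its difference in A2780CIS was 1.00 ± 0.20 (adjusted p = 0.0310, limma), and the median of its neighbours was -0.02. RAD51D stood at 8.59 FPKM against 4.04 to 4.64 in the other A2780 cultures (0.85 ± 0.19, adjusted p = 0.0425, limma), with neighbours at -0.19. ATM stood at 13.3 FPKM against 6.6 to 7.79 (0.84 ± 0.20, adjusted p = 0.0478, limma), with neighbours at 0.08. The levels of RAD50, RAD51D and ATM were 2.06, 1.99 and 1.90 times the mean of the other cultures. Of the 20 neighbours of each, 2, 1 and 3 were called higher and 3, 1 and 1 lower. The part of the neighbourhood in these 3 genes was not tested. MRE11A, the remaining subunit of MRN, stood at 5.28 FPKM against 4.55 to 6.02, within the other cultures.

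TP53BP1 was the only member called lower. It stood at 14.1 FPKM in A2780CIS, against 30.6 ± 0.747 (SD, n = 3), a level 2.16 times lower (-1.06 ± 0.17, adjusted p = 0.0174, limma), and its neighbours had a median of -0.14. The calls for RAD50, RAD51D, ATM and TP53BP1 were lost without the scrambled library, without A2780-shCOL11A1 and in a fit of all 6 libraries. With no filter on low values RAD50, RAD51D and ATM were not called either, nor was ATM with 0.1 FPKM added in place of 1. Over the settings tried the adjusted p (limma) reached up to 0.153 for RAD50, 0.185 for RAD51D, 0.230 for ATM and 0.112 for TP53BP1. Without A2780-COL11A1, on the other hand, more members were called in both directions, and so were more genes of the whole table. BARD1, CHEK2 and UBE2T were added on the higher side. On the lower side BRCA2, FAN1, FANCE, FANCF, RAD51C and XRCC3 were added.

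BRCA2 lies in a stretch of chromosome 13 that was low in A2780CIS: its 20 neighbours had a median of -0.84, and 11 were called lower. BRCA2 itself stood at 1.42 FPKM, against 2.46, 3.31 and 1.62, a difference of -0.49 ± 0.32 that was not called (adjusted p = 0.323, limma). The 8 Fanconi core genes, counted with UBE2T, had 4 positive and 4 negative differences in A2780CIS, with a median of -0.04 and no call, and FANCD2 and FANCI differed by 0.05 and 0.20. All 4 translesion genes had positive differences with a median of 0.23, and none was called.

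**Figure D3:**
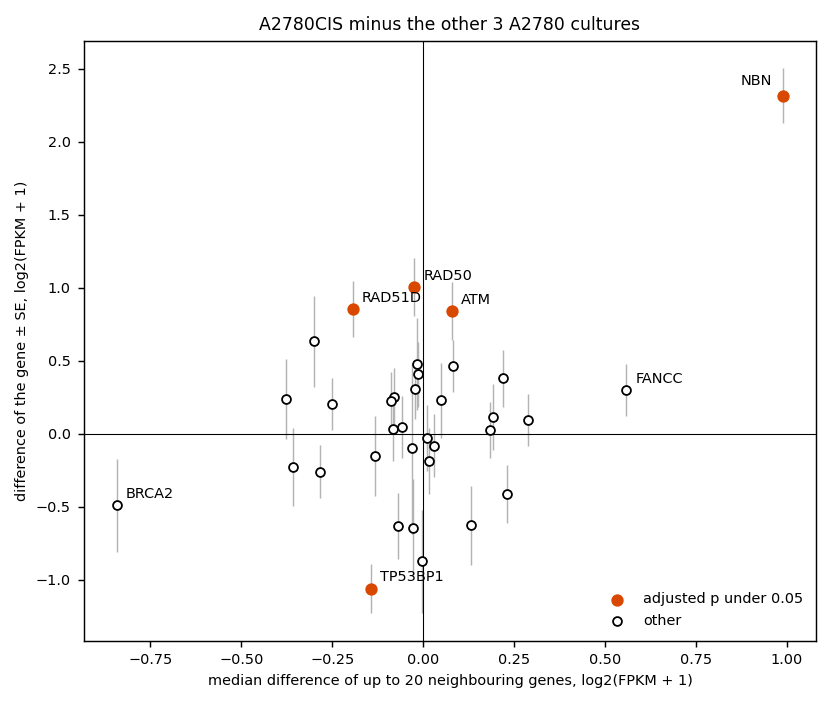
Difference between A2780CIS and the other 3 A2780 cultures for each of the 35 genes (y axis, with bars of 1 SE from limma) against the median difference of its nearest tested genes, up to 20 (x axis), both in log2(FPKM + 1). NBN stands at 2.32 with neighbours at 0.99, RAD50, RAD51D and ATM stand at 0.84 to 1.00 with neighbours from -0.19 to 0.08, and BRCA2 lies at the left edge with neighbours at -0.84.

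Of the 59 other genes of these pathways, 4 (6.78%) were higher and 1 (1.69%) lower in A2780CIS, both shares below the 9.15% and 9.85% of all genes. ERCC1 stood at 122.6 FPKM against 61.5, 54.9 and 48.4 (1.15 ± 0.20, adjusted p = 0.0215, limma), RAD51B, a partner of RAD51D, at 6.13 against 2.21 to 2.89 (0.98 ± 0.21), FAM175A, the abraxas subunit of the BRCA1-A complex, at 21.9 against 10.8 to 12.6 (0.89 ± 0.19), and STRA13, a partner of FANCM, at 54.2 against 30.2 to 34 (0.74 ± 0.17). TIMELESS, which protects forks, was lower, at 6.46 FPKM against 16.0 to 20.5 (-1.37 ± 0.22, adjusted p = 0.0177, limma). In the end joining list DCLRE1C, the Artemis nuclease, was the only gene called, at 9.06 FPKM against 3.40 to 4.09 (1.09 ± 0.20, adjusted p = 0.0254, limma). Of 22 proliferation genes 1 (4.55%) was higher and 2 (9.09%) lower, with a median of 0.10; of 18 p53 targets 1 (5.56%) was higher and 3 (16.7%) lower, with a median of -0.09.

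The comparison that the series was designed for, high against low COL11A1 over both lines, called no gene. COL11A1 itself differed by 3.22 ± 1.39 (SE) and was not called (adjusted p = 0.731, limma). OVCAR3-COL11A1, in the high group, had 1.67 FPKM of COL11A1, below the 4.23 of the scrambled library in the low group. Since even COL11A1 was not called, the lack of a call does not show that a gene was unchanged. The smallest adjusted p among the 35 genes was 0.731 (limma), and 0% of all 12841 genes were called. The 35 genes had a median difference of -0.01, equal to that of all genes. At an unadjusted p under 0.05 there were 2 of the 35, against 6.48% of all genes: UBE2T differed by 0.53 ± 0.20 and XRCC3 by -0.52 ± 0.20, each with an adjusted p of 0.731 in limma. UBE2T stood at 35.1 and 29.9 FPKM in the low and 58.4 and 49.6 in the high A2780 libraries, and at 33.7 and 38.1 in OVCAR3. XRCC3, whose locus overlaps KLC1, stood at 15.2 and 14.8 FPKM in the low and 8.27 and 10.5 in the high A2780 libraries, and at 10.0 and 8.08 in OVCAR3.

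Counted without a test, 5 of the 35 genes had their high libraries above the low ones within both lines with no overlap (BARD1, UBE2T, REV1, RAD18 and CHEK1), against 10.1% of all genes, and 3 had them below (XRCC2, XRCC3 and FANCE), against 12.3%. The gaps were often narrow: REV1 stood at 12.7 and 13.1 FPKM against 11.6 and 12.5 in A2780. With the other 59 pathway genes, 0 were called and 0 had an unadjusted p under 0.05.

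A test of whether the high-low difference varied between the lines also called 0% of genes, and 13.6% had an unadjusted p under 0.05, with 3 of the 35 genes among them. BRCA2 differed by 1.45 ± 0.32 between the lines, FAN1 by 1.24 ± 0.38 and BRIP1 by 1.07 ± 0.27, with adjusted p of 0.309, 0.343 and 0.326 in limma. In each, the high library was above the low one in OVCAR3 and both high libraries were below both low ones in A2780. This test had 1 library per group in OVCAR3, and its count of called genes moved from 0 to 2821 when A2780-COL11A1 was left out and to 14 without A2780CIS.

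Each construct was also set beside a control of its line, 1 library against 1, where no test is possible and a gene was counted when it differed by at least 2-fold, a difference of 1 in log2(FPKM + 1). The 3 A2780 pairs share the scrambled library, so their values are not independent. In A2780-COL11A1, 0 of the 35 genes were at least 2-fold higher and 1 was lower, FANCF at 3.12 FPKM against 8.61 (-1.22); 0.849% and 1.91% of all genes passed these limits. The next lowest were FANCE (-0.78), FAN1 (-0.67) and XRCC3 (-0.50), and the highest were UBE2T and BARD1 (both 0.49), RAD51C (0.38) and CHEK1 (0.24). The median of the 35 genes was -0.16, against -0.04 for all genes, and with median scaling it was -0.055, against 0.07.

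In A2780-shCOL11A1 none of the 35 genes passed 2-fold in either direction, where 0.179% of all genes were higher and 0.195% lower. Differences ran from -0.45 for FANCG, at 10.7 FPKM against 14.9, to 0.32 for BRCA2, at 3.31 against 2.46. FANCE (-0.38), FANCL (-0.36) and UBE2T (-0.22) followed on the lower side, and RBBP8 (0.28), REV3L (0.27) and ATM (0.21) on the upper side. The median was 0.04, against 0.00 for all genes, while the 22 proliferation genes had a median of -0.25.

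In A2780CIS against the scrambled control 2 of the 35 genes were at least 2-fold higher, NBN (2.34) and RAD50 (1.01), and 3 lower, FAN1 (-1.06), FANCE (-1.03) and TP53BP1 (-1.02); for all genes the shares were 8.43% and 10%. FAN1 stood at 6.97 FPKM against 15.7 and FANCE at 8.57 against 18.5. Only TP53BP1 among these lower genes stood apart from all other A2780 libraries by that much, since A2780-COL11A1 had FAN1 at 9.48 FPKM and FANCE at 10.4. ATM (0.92) and RAD51D (0.77) were the next on the upper side, and XRCC3 (-0.81) on the lower side.

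The OVCAR3 pair shares no library with the others, and OVCAR3-COL11A1 had the lowest estimated relative depth. None of the 35 genes passed 2-fold, where 6.79% of all genes were higher and 4.18% lower. REV3L came nearest, at 14.5 FPKM with COL11A1 and 6.97 with GFP (0.96), followed by NBN (0.86), BRIP1 at 4.37 against 1.99 (0.85) and BRCA2 at 3.98 against 1.80 (0.83). For BRIP1, BRCA2 and REV3L the ratio of FPKM itself was 2.20, 2.21 and 2.08, and for FANCA on the lower side it was 0.461; the added 1 FPKM brought these 4 under the limit. On the lower side stood CHEK2 at 3.96 FPKM against 7.61 (-0.80), FANCA at 1.63 against 3.55 (-0.79), FANCI at 3.39 against 6.20 (-0.71) and FANCG at 5.11 against 8.95 (-0.70). The median of the 35 genes was 0.19, against 0.05 for all genes, and it was 0.06 under either common scaling. In this pair the 22 proliferation genes had a median of -0.48, with 6 at least 2-fold lower, and their part in the lower Fanconi values was not tested.

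**Figure D4:**
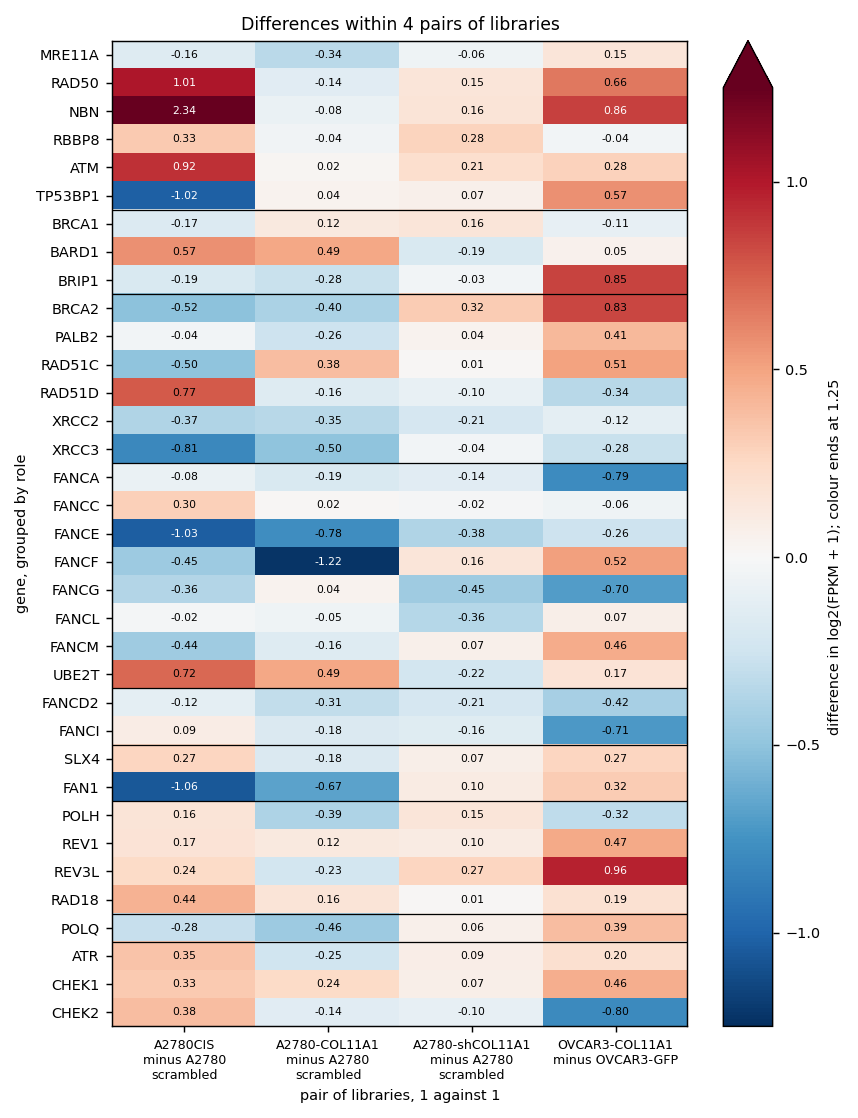
Difference in log2(FPKM + 1) within 4 pairs of libraries (columns) for the 35 genes (rows, ordered by role), red where the first library is higher and blue where it is lower; each cell is 1 library minus 1 library, with no error. NBN at 2.34 and RAD50 at 1.01 stand out in the first column and FANCF at -1.22 in the second, the third column stays between -0.45 and 0.32, and the fourth runs from -0.80 for CHEK2 to 0.96 for REV3L.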

How the data were processed

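Per the labels, RNA was poly-A selected, made into stranded libraries and read as single ends of 75 bases. The authors deposited 1 table of FPKM values in 6 columns. Because words stand in place of numbers in some cells, its unit was recorded as other and its values were used as FPKM. STAR 2.5.0, RSEM 1.2.25 and the build GRCh38 appear in the submitters' processing notes, but the deposited coordinates match GRCh37 (hg19) and the columns look like Cufflinks output. Which program made the values is therefore unsettled; coordinates are given as deposited.

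Entries off the main chromosomes, names with several loci, entries with too little data or a failed estimate and names turned into dates were left out, which left 23145 of 25275 entries. Read counts were not used here, absolute depth is unknown and no counting interval was derived. Values were put on log2(FPKM + 1) and fitted with limma 3.58.1 in R 4.3.3, with an intensity trend, over genes averaging at least 1 FPKM, two-sided, with Benjamini-Hochberg adjustment over all genes tested. The models held group and line, their interaction, or A2780CIS against the other 3 A2780 libraries; pairs of libraries were compared without a test. The group, line and A2780CIS fits were first run on simulated data with known changes, with spreads taken from the other 3 A2780 libraries. Recovery of the changes was required only of the line and A2780CIS fits, and the interaction was not simulated. Alternatives changed the pseudocount (0.1 or 5), the filter, the scaling, the trend, the terms and the libraries. The members and lists were chosen with earlier results of these data known. All members are named, and of the other lists at most 4 called genes per direction. Only the spread between constructs, which may be technical, enters the p-values.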

Additional observations from a re-analysis of the deposited data

How the results depend on the processing

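No called difference changed its sign under an alternative. The median of the members in A2780CIS against the scrambled control, -0.02 and untested, was 0.07 with quantile normalization, 0.05 with median scaling and 0.06 against A2780-shCOL11A1, and that of high against low COL11A1, -0.01, was 0.01 with median scaling. Between the lines, BRCA1, FANCA, FANCC, FANCE and FANCI were called lower in OVCAR3 in 14 of 14 alternatives. The count of members called lower, 11, was 6 with no filter on low values and ranged from 6 to 12 when 1 library was left out. The count called higher, 0, was 3 with quantile normalization, 3 with median scaling, 1 with no group term and 0 to 1 when 1 library was left out. The 2522 higher and 3288 lower genes of the whole table were 1670 higher with a mean of at least 5 FPKM, and 1148 higher and 1710 lower without OVCAR3-COL11A1. For A2780CIS, the 4 members higher were 1 with no filter, 1 with all 6 libraries in 3 groups and 1 to 7 when 1 library was left out, and the 1 lower was 0 with 3 groups and 0 to 7. The 1106 higher and 1190 lower genes ranged from 473 to 2674 and from 373 to 3417. For high against low COL11A1, 0 genes were called in every alternative run. The 2 members at an unadjusted p under 0.05 were 4 with no filter, 1 with quantile normalization, 0 with no cell line term, 0 with only the COL11A1-transfected libraries, the scrambled shRNA library and OVCAR3-GFP, and 0 to 6 when 1 library was left out. The interaction called 1495 genes with no filter and 0 to 2821 when 1 library was left out; these interaction settings were chosen after seeing the data. Of the pairs, A2780CIS against the scrambled control had 1 member higher and 0 lower with a pseudocount of 5 FPKM, 0 lower with median scaling and 1 higher against A2780-shCOL11A1. A2780-COL11A1 had 0 lower with a pseudocount of 5 FPKM and a median of -0.055 with median scaling (all genes 0.07). OVCAR3-COL11A1 had 3 higher and 1 lower with a pseudocount of 0.1 FPKM and a median of 0.0574 with quantile normalization and 0.0625 with median scaling (all genes 0.00 and -0.07). Unless an alternative tests fewer genes or libraries, the cause was not tested. No paired test was run. Each construct was sequenced once, and 3 of the 4 pairs share a control. Fits with a line term do compare libraries within lines.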
